A study of Mus musculus with 60 samples.

Results

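The cytosolic ribosomal protein genes encode the proteins of the small (40S) and large (60S) subunits of the ribosome that translates nuclear mRNAs. They were taken here as all mouse genes whose symbol is Rpl or Rps followed by a digit, without a hyphen, together with Rplp0, Rplp1, Rplp2 and Rpsa, and without the S6 kinases and symbols ending in rt or ps. The rule found 90 of the 47729 mouse genes in the deposited count table, 36 of them in the 40S set and 52 in the 60S set. The sets were made by symbol alone. They also hold Rpl6l, Rps3a2, Rps3a3, Rps12l1 and Rps4l, which the annotation lists as processed pseudogenes and which were all below 10 CPM. Outside both sets, 2 more meet the letters of the rule but are not subunit proteins. Rpl7l1 is a ribosome biogenesis factor and Rps19bp1 a protein that binds Rps19. Fau and Rack1, which also encode ribosomal proteins under other names, were left out by the rule and were placed in a list of related genes.

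A ribosome needs its proteins in near equal numbers, and their genes are among the most evenly expressed in the genome. Their mRNAs are known as TOP mRNAs, since they begin with a C followed by a run of pyrimidines (the 5′ terminal oligopyrimidine tract). The kinase mTOR and the cap-binding protein Larp1 control the translation of these mRNAs more than their amount, so the level of the mRNA is not a measure of ribosome production. Ribosome assembly is known as one of the largest costs of a growing cell, which is why these genes are often examined in cells that have stopped dividing.

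PyMT-Bo1 is a mouse mammary tumor cell line, given firefly luciferase, a nuclear H2B-mApple fusion, Thy1.1 and eGFP, and labeled with the membrane dye DiD, which each division dilutes. The cells were injected into the heart of wild-type female C57BL6 mice aged 8 to 10 weeks, and femurs and tibias of 5 mice were pooled and sorted 11 days later as Thy1.1+ cells lacking CD45, 1 cell per well. The 32 DiD+ cells are called dormant by the study and the 28 DiD- cells proliferative, and both groups carry the same transgenes. Which of the pooled mice a cell came from is not given, and each group was therefore taken as 1 sample: no test between the groups was possible, and every interval below is an exact Poisson interval (95%) on summed counts, which covers counting error only. Reads carry no molecular identifiers.

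Depth was 2276790 to 7794220 mouse counts per DiD+ cell (median 4653710) and 2624400 to 6199110 per DiD- cell (median 4440160). Of the markers of mammary tumor epithelium, Krt8 was counted in 60 of 60 cells and Krt18 in 58, while Krt19, Krt7 and Epcam were at 0 in every cell. A total of 9 wells, 6 DiD+ and 3 DiD-, held at least 7 of 13 macrophage or monocyte markers or at least 4 of 7 erythroid markers at 10 counts or more, and 1 of them, the DiD+ well of cell 30, had no count on any transgene. Over all wells the summed level of the 13 macrophage markers ran from 0 to 20407 CPM (counts scaled to the same mouse total in each cell or group, per 1e+06) in DiD+ and from 0 to 1710 CPM in DiD-, with medians of 44.5 and 24.5 CPM. Values without these wells are given for some results only. They are not given for the related lists, for the counts by length or for most single members, such as Rps16, Rps28 and Rps29. The label numbers fall into 2 runs, 17 to 46 and 63 to 92, whose meaning is not stated, and both groups occur in each.

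The start of a TOP mRNA can be looked for in the genome, and the stretches below are examples of members with and without it at the annotated start. They hold such starts more often than the family does, where 13 of 65 members had one. Each holds 30 bases around the start that RefSeq annotates (GRCm38.p6), 15 on each side, with the base 16 as the first transcribed base and the longest run of C and T in capitals.
Rps6 (chr4:86857353-86857382, minus strand): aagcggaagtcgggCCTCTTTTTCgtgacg
Rplp2 (chr7:141447636-141447665, plus strand): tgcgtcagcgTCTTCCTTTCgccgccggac
Rpl38 (chr11:114668565-114668594, plus strand): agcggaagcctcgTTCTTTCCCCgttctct
Rps27 (chr3:90213634-90213663, minus strand): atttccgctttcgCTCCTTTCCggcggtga
Rpl22l1 (chr3:28805493-28805522, plus strand): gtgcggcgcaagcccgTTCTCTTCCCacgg
Rps28 (chr17:33824548-33824577, minus strand): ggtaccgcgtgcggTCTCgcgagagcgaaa
In the first 4 the annotated start is a C followed by at least 4 pyrimidines. In Rpl22l1 the run of 10 begins 1 base after the annotated start, and in Rps28 the run at the start is only 4 bases long.

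RefSeq's promoter table held 65 of the 90 members, and 13 of these (20%) had a start of this kind, against 3.01% of all 27025 genes in the table. A run of at least 8 pyrimidines within 25 bases of the start was found in 33 members (50.8%) and in 22.3% of all genes. The hexamer CCGGAA, on either strand of the 300-base window from 250 bases before to 50 after the start, was found in 35 members (53.8%) and in 16.7% of all genes. The 13 members with the exact start did not stand apart in the comparison of the groups: their log2 ratios of DiD+ over DiD- had a median of 0.07 (-0.06 to 0.20), and those of the 49 other members with a promoter and at least 10 CPM had a median of 0.06 (-0.34 to 0.61). These matches describe the letters at the annotated start and not the start used in these cells.

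Ribosomal protein mRNAs took up about the same share of the counts in dormant and in proliferative cells. Summed over cells, the 90 members held 4.11% of mouse counts in DiD+ (95% counting interval 4.107 to 4.113%) and 4.02% in DiD- (4.019 to 4.027%), a log2 ratio of 0.03. Per cell the share ran from 2.23% through a median of 3.99% to 9.56% in DiD+, and from 2.71% through 3.9% to 7.42% in DiD-. The ranges overlap over nearly their whole length, and the difference between the medians is small beside the spread within either group. The highest DiD+ value belonged to cell 35 and the highest DiD- value to cell 74. Cell 35 also held the DiD+ maximum of 65 members, and cell 74 the DiD- maximum of 53. Cell 35 alone set the sign of the group difference: without it the DiD+ share was 3.92% and the log2 ratio -0.04, and leaving out any other single cell kept the ratio above 0. It was also the cell with the highest share of counts on mitochondrial genome genes in DiD+ (3.91%, group median 1.33%), and it had 6323 genes with a count against a group median of 8283. Cell 35 held no host marker set, and the part of these features in its high share was not tested.

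**Figure D1:**
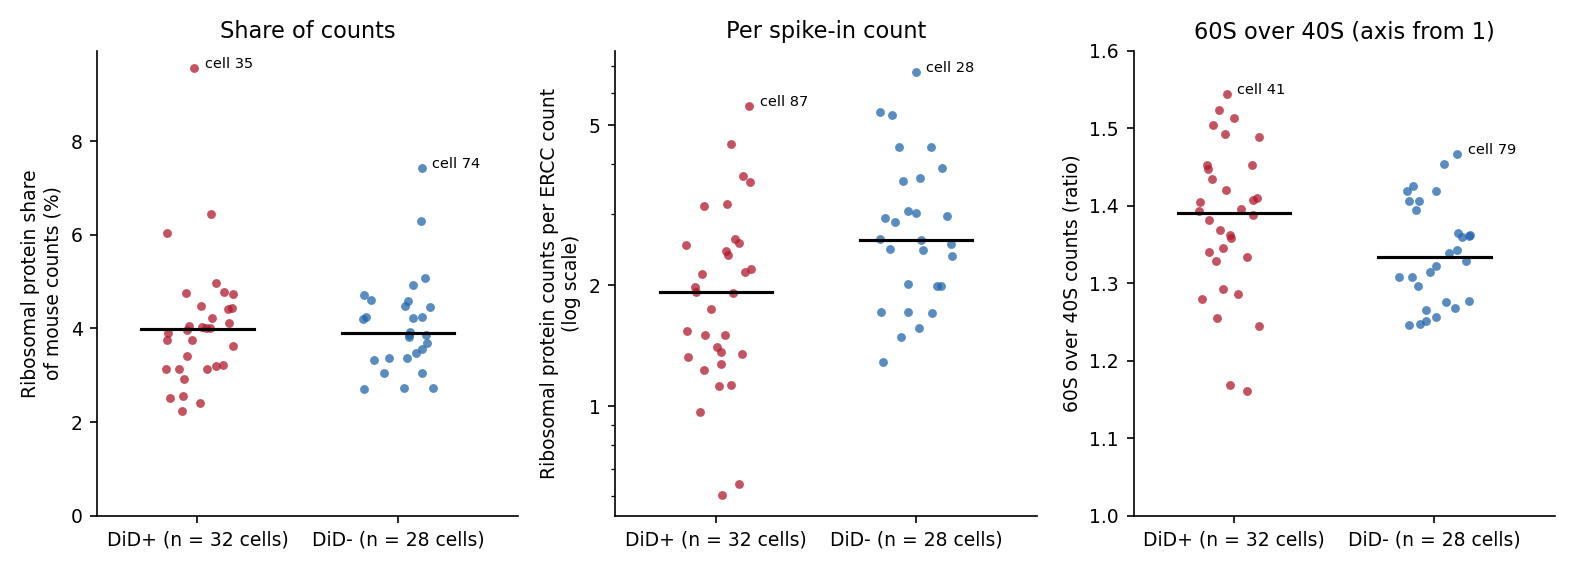
Share of mouse counts on ribosomal protein genes (percent, left), their counts per ERCC spike-in count (log scale, middle) and the ratio of 60S to 40S counts (axis from 1, right) in each of the 32 DiD+ and 28 DiD- cells; points are cells and lines are group medians. The shares overlap almost fully (medians 3.99% and 3.9%), while per spike-in count the DiD+ median (1.92) lies below the DiD- median (2.59).

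Relative to the spike-in the members were lower in dormant cells, to the same degree as the rest of the transcriptome. ERCC spike-ins, synthetic RNAs added in equal amount to each well, allow the counts of a well to be set against a constant input. The members gave 1.71 counts per ERCC count in DiD+ and 2.62 in DiD-, a ratio of 0.652 (log2 -0.62), and all mouse genes together gave 41.6 and 65.1, a ratio of 0.638 (log2 -0.65). Per cell, the members' value ran from 0.604 through a median of 1.92 to 5.57 in DiD+ and from 1.29 through 2.59 to 6.78 in DiD-, so that the groups overlap but the 2 lowest wells, cells 68 and 19, are DiD+. Without the 9 wells with host markers the log2 ratio was -0.42, in cells 17 to 46 it was -0.82 and in cells 63 to 92 it was -0.52. On this scale all 82 members with at least 10 CPM in a group had a ratio below 0, against 87.8% of the 8814 genes at that level, and 78 of the 82 (95.1%) were lower by more than 0.32 on the log2 scale, against 75.6%. This scale moves the CPM ratio of every gene by the same -0.65. These counts therefore restate the narrow spread of the members' CPM ratios and are not a separate result. The median over the members was -0.61 and that over all these genes -0.65. Less RNA per well and a lower yield of cDNA from a well cannot be told apart here.

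Taken gene by gene as CPM, the members moved little, and less than other genes above the same minimum, which were not matched to them on level. Of the 90, 82 reached 10 CPM in a group, 78 reached 100 CPM, and 3 had no count at all. The log2 ratio, computed on CPM plus 1, had a median of 0.04 over the 82 members (quartiles -0.03 and 0.14), and of -0.0041 over the 8814 genes. Of the 82 members, 54 (65.9%) were higher in DiD+, against 49.5% of all genes at that level. Among the 78 members with at least 100 CPM, 51 (65.4%) were higher, against 41.6% of the 2405 genes at that level. That split depended on 1 cell and on the scaling: 30 of 82 were higher without cell 35 (49.7% of all genes), 61 in cells 17 to 46 alone and 24 in cells 63 to 92 alone. Without the wells with host markers 52 of 82 were higher. The split was 45 of 82 with TMM factors, 43 with DESeq2 factors, 41 with the mean of each cell's CPM and 25 with the authors' BASiCS values. TMM and DESeq2 factors shift all genes alike. With them the members' median was 0.014 and 0.0073, and that of all genes -0.030 and -0.037. With the mean of each cell's CPM these medians were 0.0029 and 0.0040, and with BASiCS values -0.055 and -0.047. They were 0.10 and -0.018 in cells 17 to 46, and -0.070 and 0.025 in cells 63 to 92. No direction of the group as a whole can be read from the split.

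Few members differed by more than a small amount. Past a log2 ratio of 0.32, which was the fold used as a mark in either direction, 4 of the 82 members (4.88%) were higher, against 24.6% of all genes, and 1 (1.22%) was lower, against 23.1%. No member passed 2-fold in either direction, against 9.55% of the 8814 genes. At 100 CPM or more, 3 of 78 members were higher past that mark, against 14.1% of genes, 1 was lower, against 22.5%, and 0 passed 2-fold, against 4.28%. The members and the other genes were not matched on level in these counts. The ranges of the groups over cells overlapped for every member with a count. The share over all genes was not computed, so this overlap says nothing particular to the members.

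**Figure D2:**
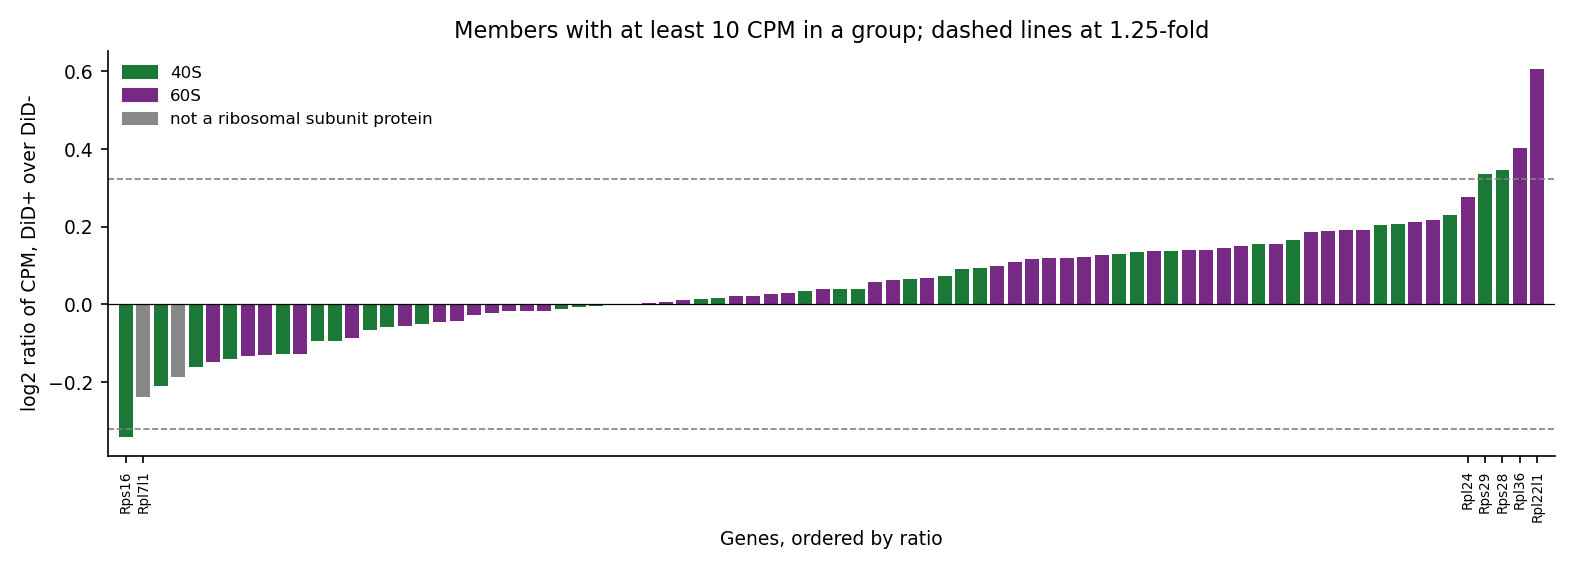
Log2 ratio of CPM, DiD+ over DiD- (vertical axis), of the 82 members with at least 10 CPM in a group, ordered by ratio, with names under the 2 lowest and the 5 highest; green bars are 40S proteins, purple bars 60S proteins, grey bars the 2 symbols that are not subunit proteins, and dashed lines mark a log2 ratio of 0.32 in either direction. Values run from -0.34 (Rps16) to 0.61 (Rpl22l1) and 77 of 82 lie between the dashed lines.

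The 2 subunits behaved alike. The 40S members held 1.73% of counts in DiD+ and 1.72% in DiD- (log2 ratio 0.01), with 19 of 32 members of at least 10 CPM higher in DiD+ and a median ratio of 0.04. The 60S members held 2.36% and 2.29% (log2 ratio 0.05), with 35 of 48 higher and a median of 0.06. These counts are 59.4% and 72.9%, against 49.5% of all 8814 genes at that level. Without cell 35 only 30 of all 82 members were higher, so no direction of either subunit can be read from the counts. The counts by subunit without that cell are not given here. Over the 60 cells the log2 shares of the 2 subunits had a Pearson r of 0.98 (Spearman 0.96), which is a description of points that share a library and a total. The ratio of 60S to 40S counts ran from 1.16 through a median of 1.39 to 1.54 in DiD+ and from 1.246 through 1.33 to 1.47 in DiD-. The DiD+ cells spread further at both ends, and the 2 lowest values, in cells 76 and 25, and the highest, in cell 41, were all DiD+.

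Among 40S proteins, Rps16 had the lowest ratio and Rps28 and Rps29 the highest. Rps16 (ENSMUSG00000037563, chr7:28350652-28353155, plus strand, 5 exons), a protein near the decoding region, ran from 80.6 through a median of 246 to 697 CPM in DiD+ cells and from 149 through 321 to 650 CPM in DiD- cells. The summed level was 258 CPM (255 to 260) in DiD+ and 327 CPM (323 to 330) in DiD-, which gave a ratio of -0.34 on the log2 scale. With each cell left out in turn it ran from -0.43 (without cell 35) to -0.30 (without cell 74) and lay just short of the 0.32 mark without any of cells 32, 43, 72, 74, 82 or 92. It was -0.23 in cells 17 to 46 and -0.54 in cells 63 to 92.

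Rps28, a small protein of the 40S head, ran from 26.3 through 144 to 931 CPM in DiD+ and from 30.1 through 151 to 385 CPM in DiD-. Rps29, a zinc-binding protein beside it, ran from 24.4 through 142 to 964 CPM in DiD+ and from 29.8 through 133 to 457 CPM in DiD-. Their summed ratios were 0.35 and 0.34, but both maxima were in cell 35, and without that cell the ratios were 0.13 and 0.11, short of the mark of 0.32. Both lay close to the mark, and losing any of several other cells also put them under it, at no less than 0.28. For Rps28 the median cell was not higher in DiD+, so its summed ratio rests on the highest cells.

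Rps6, the 40S protein that the S6 kinases phosphorylate downstream of mTOR, had 1022 CPM in DiD+ and 1064 CPM in DiD- (log2 ratio -0.06), with per-cell medians of 882 and 990 CPM. Rps19, which is mutated in Diamond-Blackfan anemia, had 765 and 731 CPM (log2 ratio 0.07). Rpsa, the 40S protein also known as the laminin receptor, had 1510 and 1494 CPM (log2 ratio 0.02, and -0.0026 without cell 35), with per-cell ranges of 628 to 2489 and 782 to 2478 CPM. None of these 3 passed the mark. Rps19bp1, which is not a subunit protein, had 55.2 and 63.1 CPM (log2 ratio -0.19) and was counted in 29 of 32 DiD+ and 27 of 28 DiD- cells.

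Among 60S proteins, Rpl36 and Rpl24 followed Rpl22l1 at the top. Rpl36 (ENSMUSG00000057863, chr17:56613416-56614243, plus strand, 4 exons) ran from 72.8 through 235 to 601 CPM in DiD+ and from 65.6 through 200 to 412 CPM in DiD-, and its summed level was 272 CPM (270 to 275) against 205 CPM (203 to 208). The log2 ratio of 0.40 did not depend on 1 cell (0.34 to 0.44 with each cell left out), was 0.42 without the wells with host markers, and was 0.48 and 0.29 in the 2 runs of label numbers. Rpl24, which forms a bridge between the subunits, had 358 and 296 CPM (log2 ratio 0.28). Rpl5 and Rpl11, which with 5S rRNA form the particle that can bind Mdm2 when ribosome assembly fails, had 617 against 628 CPM (log2 ratio -0.03) and 293 against 322 CPM (log2 ratio -0.13). Rpl10, which completes the 60S subunit at the end of its maturation, had 1307 and 1256 CPM (log2 ratio 0.06). Rpl38, known for its part in translation of Hox mRNAs, had 137 and 120 CPM (log2 ratio 0.19), with per-cell medians of 102 CPM in DiD+ and 117 CPM in DiD-. Its maximum of 756 CPM was in cell 35, and without that cell the log2 ratio turned to -0.05.

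The stalk proteins, which recruit the GTPases of translation to the 60S subunit, were each slightly higher in DiD+ in the summed counts. Rplp0, the base of the stalk and often used as a reference gene, had 1904 CPM (1897 to 1911) in DiD+ and 1644 CPM (1637 to 1651) in DiD-, which gave a ratio of 0.21 on the log2 scale. Its per-cell values ran from 800 through 1778 to 3865 CPM in DiD+ and from 851 through 1553 to 2517 CPM in DiD-. Rplp1 had 383 and 346 CPM (log2 ratio 0.14) and Rplp2 had 203 and 187 CPM (log2 ratio 0.12), with per-cell medians slightly lower in DiD+ for both (342 against 344 CPM and 171 against 179 CPM). The median and the sum thus differ in direction for Rplp1 and Rplp2. Cell 35 held the highest value of both, and without it the log2 ratio was 0.05 for Rplp1, -0.0060 for Rplp2 and 0.20 for Rplp0.

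Several members have a paralogue, and the pair Rpl22 and Rpl22l1 held the highest ratio of the family. Rpl22 and Rpl22l1 are alternative proteins of the same place in the 60S subunit, and their coding sequences were identical at 70.2% of 366 aligned bases. Rpl22l1 (ENSMUSG00000039221, chr3:28805436-28807424, plus strand, 4 exons) ran from 3.69 through 32.8 to 190 CPM in DiD+ and from 5.96 through 23.8 to 105 CPM in DiD-, where the summed levels were 45.3 CPM (44.3 to 46.5) and 29.5 CPM (28.5 to 30.4) and their log2 ratio 0.61. Rpl22 had 90.8 and 90.4 CPM (log2 ratio 0.0054, and -0.14 without cell 35). Rpl22l1 was thus 33.3% of the pair's counts in DiD+ and 24.6% in DiD-, and per cell its part of the pair had a median of 29.9% (12.5 to 79%) in DiD+ and 21.7% (6.89 to 46.7%) in DiD-. The highest DiD+ cell was cell 19, 1 of the wells with host markers. Without cell 19 the log2 ratio of Rpl22l1 was 0.41 and its part of the DiD+ pair 30%, without all wells with host markers the ratio was 0.44, and in the 2 runs of label numbers it was 0.96 and 0.37. The direction held in each of these, and the ranges over cells overlap.

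The other pairs with a detected paralogue were split more alike between the groups for Rps27l and Rpl36al, and differently for Rpl7l1. Rps27l, which is known as a target of p53, held 68.6% of the counts of its pair with Rps27 in DiD+ and 69.2% in DiD-, and Rpl36al, an intronless copy, 58.2% and 59.5% of its pair with Rpl36a. As log2 ratios, Rps27l had 0.17 and Rps27 0.21, and Rpl36al had 0.03 and Rpl36a 0.11. Without cell 35 these were 0.03, 0.07, -0.07 and 0.0044, so that of Rpl36al turned below 0. Over the 60 cells the copies had a Pearson r of 0.62 (Rps27 with Rps27l) and 0.60 (Rpl36a with Rpl36al). All pairs among members of at least 100 CPM had a median of 0.59, so these values are not particular to paralogues. Rpl22 with Rpl22l1, both under 100 CPM in each group, had 0.28. Rpl7l1, which is 56.0% identical to Rpl7 over the aligned coding bases, had 121 and 143 CPM (log2 ratio -0.24), and Rpl7 had 664 and 634 CPM (log2 ratio 0.07, and -0.02 without cell 35). Rpl7l1 was thus 15.4% of the counts of its pair in DiD+ and 18.4% in DiD-, a lower part in DiD+ where that of Rpl22l1 was higher.

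The tissue-restricted paralogues were not detected. Rpl3l, known from heart and skeletal muscle, and Rpl10l and Rpl39l, known from testis, had 0 counts in 60 of 60 cells, which allows at most 0.0205 CPM in DiD+ and 0.0251 CPM in DiD-. Their partners were well expressed in both groups, Rpl3 with 1328 and 1450 CPM (log2 ratio -0.13) and Rpl39 with 155 and 139 CPM (log2 ratio 0.15). For Rpl39 the per-cell medians ran the other way (115 CPM in DiD+ and 133 CPM in DiD-), and without cell 35 the log2 ratio was -0.05. Rps4l, annotated as a processed pseudogene, had 5 counts in 1 DiD- cell, cell 84, a well with host markers, beside 799 and 749 CPM for Rps4x (log2 ratio 0.09). Rps3a2, Rps3a3, Rps12l1 and Rpl6l, which the annotation also lists as processed pseudogenes, were all below 10 CPM in both groups.

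**Figure D3:**
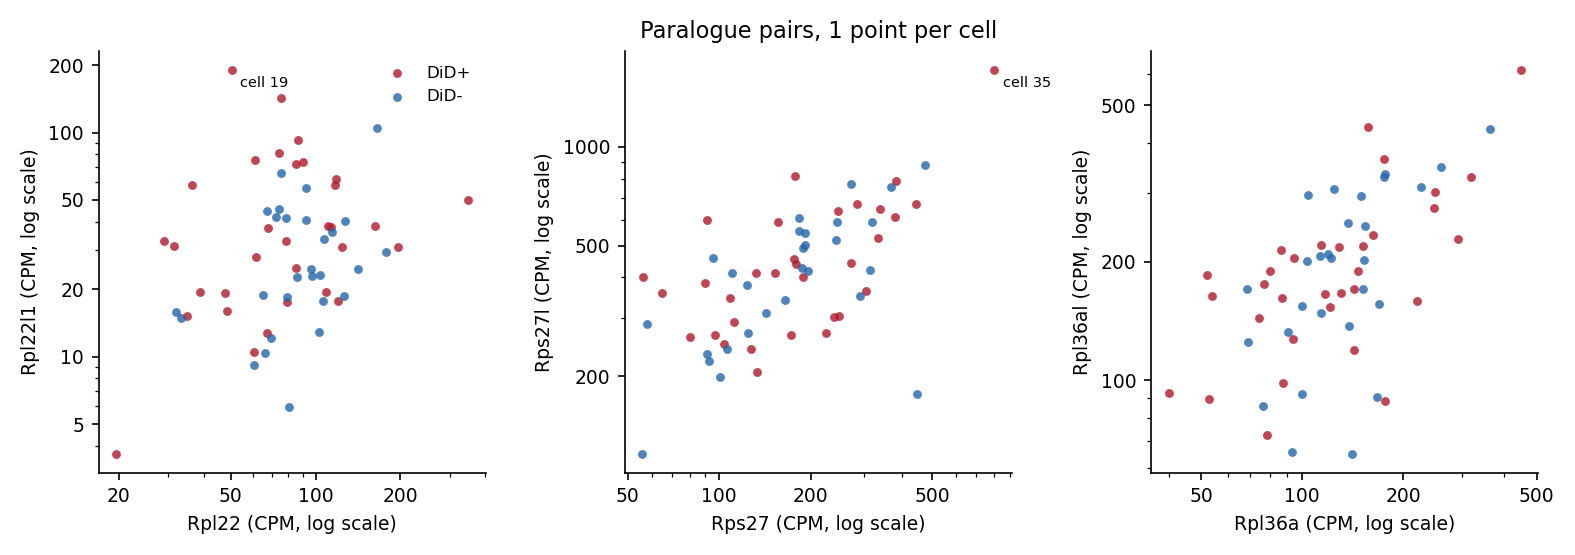
CPM of Rpl22l1 against Rpl22, Rps27l against Rps27 and Rpl36al against Rpl36a in each cell (all axes logarithmic), with DiD+ cells in red and DiD- cells in blue. Over cells r was 0.62 for Rps27l and 0.60 for Rpl36al with their partners, near the median of all member pairs of at least 100 CPM (0.59). It was 0.28 for Rpl22l1, in which cell 19 lies highest.

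Levels between members can be ordered only per length. Per kb of spliced transcript, Rpl13 had 1699 CPM per kb in DiD+ and 1718 in DiD-, Rps18 had 1675 and 1592, and Rpl10 had 1529 and 1470. At the other end, Rps15a had 32.9 and 29.9 CPM per kb, Rpl22 had 44.3 and 44.1, and Rpl7l1 had 46.4 and 54.8. The place of Rps15a follows from its annotated principal transcript of 5179 bases. Per kb of coding sequence, a scale chosen after the data were seen, Rpl22l1 was lowest (102 CPM per kb, mean of both groups) and Rpl41, with only 75 coding bases, highest (8218).

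The levels of the members varied together from cell to cell. Across 60 cells the 3003 pairs among the 78 members of at least 100 CPM had a median Pearson r of 0.59 on log2(CPM + 1), and 3002 pairs were above 0. Pairs among all 2405 genes at that level had a median of 0.02, and pairs among 27 mitochondrial ribosomal proteins a median of 0.16. Within DiD+ the members' median was 0.60, within DiD- 0.60, and without the wells with host markers 0.62. The cells of a pair share a library and its total, so these are descriptions. Rps23 had the highest median r with the other members (0.71), and Rpl7l1 (0.22), Rpl4 (0.33) and Rpsa (0.40) had the lowest.

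The members had a smaller spread over cells than most genes above the same floor of 100 CPM, and within the family the spread followed the length of the coding sequence. The sets were not matched on level, and the spread fell with level in both. The SD over cells of log2(CPM + 1) had a median of 0.54 over the 78 members, against 1.17 over the 2405 genes and 0.84 over the 27 mitochondrial ribosomal proteins. All 78 had a count in every cell, as did 54.7% of the 2405 genes. The widest were Rps29 (1.01), Rps28 (1.00) and Rpl38 (0.94), and the narrowest Rpl3 (0.36), Rps3 (0.37) and Rpl13 (0.37). Across the 78 members the SD fell with coding length (Pearson r -0.74 on log2 length, Spearman -0.78), and with level as well (r -0.74). The 9 members with under 300 coding bases had a median SD of 0.85 and the 23 with 600 or more a median of 0.46. The relation to coding length was the same within DiD+ and within DiD- (r -0.72 in each) and without cell 35 (r -0.70). Among 1223 other genes of at least 100 CPM with a count in every cell the relation ran the other way (r 0.33), while that to level kept its sign (r -0.29).

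The difference between the groups followed length in the same order. At 100 CPM or more, all 9 members with under 300 coding bases were higher in DiD+, with a median log2 ratio of 0.19. Of the 23 with 600 or more, 9 were higher, with a median of -0.03. Of all genes at that level, of any length, 41.6% were higher. Without cell 35, Rpl38 (-0.05), Rpl39 (-0.05) and Rpl41 (-0.01) turned below 0, and the other short ones reached at most 0.13 (Rps28). Rps21, with 249 coding bases but under 100 CPM, had 0.04, and -0.17 without cell 35. Over the 82 members the log2 ratio had a Pearson r of -0.41 with log2 coding length and -0.34 with log2 spliced length. Other genes had a weaker relation of the same sign (r -0.15 with either length over 2308 genes of at least 100 CPM). By spliced length, 37 of 49 members (75.5%) of at most 1 kb were higher in DiD+, with a median of 0.09, and so were 62.3% of 215 other genes of at most 1 kb, with a median of 0.10. Above 1 kb, 14 of 29 members (48.3%) and 38.5% of 2093 other genes were higher. Cell 35 carried much of the members' part of this: without it 21 of 49 members of at most 1 kb (42.9%) were higher, and 52.9% of other genes of that length. In cells 63 to 92 the count was 16 of 49 (32.7%), against 113 of 214 other genes of that length (52.8%). In cells 17 to 46 it was 42 of 49 (85.7%), against 143 of 222 (64.4%).

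**Figure D4:**
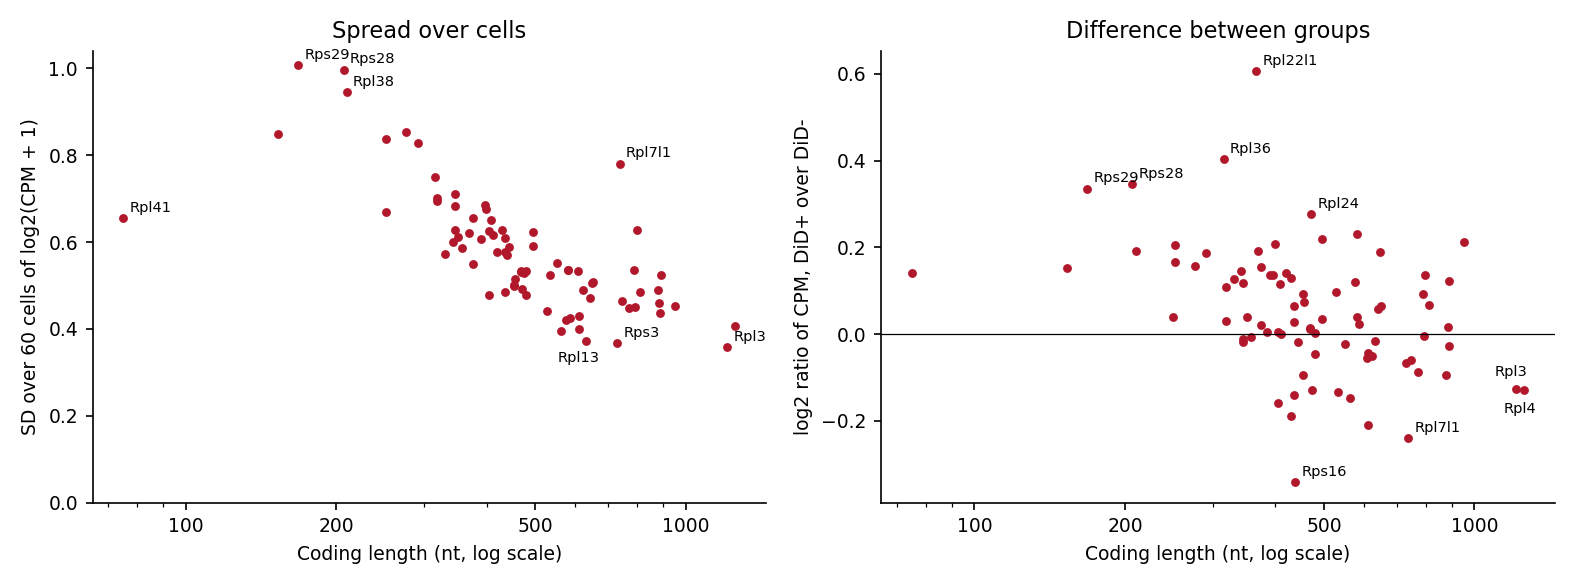
SD over 60 cells of log2(CPM + 1) of the 78 members with at least 100 CPM (left) and log2 ratio of CPM, DiD+ over DiD-, of the 82 members with at least 10 CPM (right), against coding length in bases (log scale); each point is a gene. The spread falls from about 1.00 for Rps28 and Rps29 to 0.36 for Rpl3 (r -0.74), and the ratio falls with length as well (r -0.41).

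The share of counts on ribosomal proteins was set beside other features of each cell. Over the 60 cells it had a Pearson r of 0.52 with the share of counts on mitochondrial genome genes (Spearman 0.46, and 0.39 without the 2 cells farthest from the median) and of -0.43 with the number of genes with a count (Spearman -0.38, and -0.45 without 2 cells). With summed S phase CPM it was -0.07 (Spearman -0.03), with G2/M CPM -0.25 (Spearman -0.20, and -0.33 within DiD- and -0.22 within DiD+), with mouse counts 0.03 and with the ERCC share 0.18. Its r with the summed CPM of other TOP mRNAs was 0.90 and with that of mitochondrial ribosomal proteins 0.75 (0.57 without 2 cells). All of these share the same denominator.

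Lists of related genes were set beside the members. The list of translation elongation factors and other TOP RNAs, which also holds initiation factor subunits, ribosomal proteins under other names, the noncoding Gas5 and proteins outside translation, had 21 genes of at least 10 CPM with a median log2 ratio of 0.03, and 11 of 21 were higher in DiD+. Eif3f, a subunit of initiation factor 3, was highest (133 and 103 CPM, log2 ratio 0.37) and Nap1l1, a histone chaperone, lowest (267 and 371 CPM, -0.47). Mitochondrial ribosomal proteins, which translate the mitochondrial genome, had a median of -0.05 over 78 genes with 31 higher. Mrpl53 was highest in this list (79.7 and 58.7 CPM, 0.43) and Mrpl18 lowest (101 and 146 CPM, -0.52).

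Most genes that build ribosomes were lower in DiD+ in the summed counts. Of 54 ribosome biogenesis and RNA polymerase I genes, 41 (75.9%) were lower in DiD+, against 50.5% of all 8814 genes. Past the mark of 0.32, 23 (42.6%) were lower, against 23.1% of all genes, and 3 (5.56%) higher, against 24.6%, and the median was -0.26. Utp20, a factor for the small subunit, was lowest (6.20 and 17.3 CPM, log2 ratio -1.34) and Heatr1, another such factor, highest (29.8 and 16.5 CPM, 0.81). The median was -0.54 in cells 17 to 46 and -0.07 in cells 63 to 92, so its size differed between the runs of label numbers. Of 17 mTOR and cap-binding genes 12 (70.6%) were lower, against the same 50.5%, with a median of -0.21. Rptor, the mTORC1 subunit, was lowest (10.3 and 16.6 CPM, -0.63), and Pdcd4, an inhibitor of the initiation helicase that S6 kinase signaling removes, highest (14.1 and 6.79 CPM, 0.95).

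Cell cycle genes gave the scale of the contrast between the groups. All 40 S phase genes of at least 10 CPM were lower in DiD+, with a median of -0.70, from Mcm3 (98.9 and 298 CPM, -1.58) to Dtl (36.1 and 38 CPM, -0.07). Of 52 G2/M genes 48 were lower, with a median of -0.47, from Top2a (138 and 322 CPM, -1.22) to Psrc1 (63.6 and 37.6 CPM, 0.75). Over the same sums, none of the 82 members had a log2 ratio beyond 0.61 in either direction. Per cell, the summed G2/M level had medians of 1818 CPM in DiD+ and 7074 CPM in DiD-, and the summed S phase level 1753 and 4631 CPM. The highest cells of both were DiD+, however. Cell 63 had 31815 CPM of G2/M genes (DiD- maximum 24335), and cell 25 had 14722 CPM of S phase genes (DiD- maximum 14175). The DiD+ group thus held cells with high cell cycle levels.

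**Figure D5:**
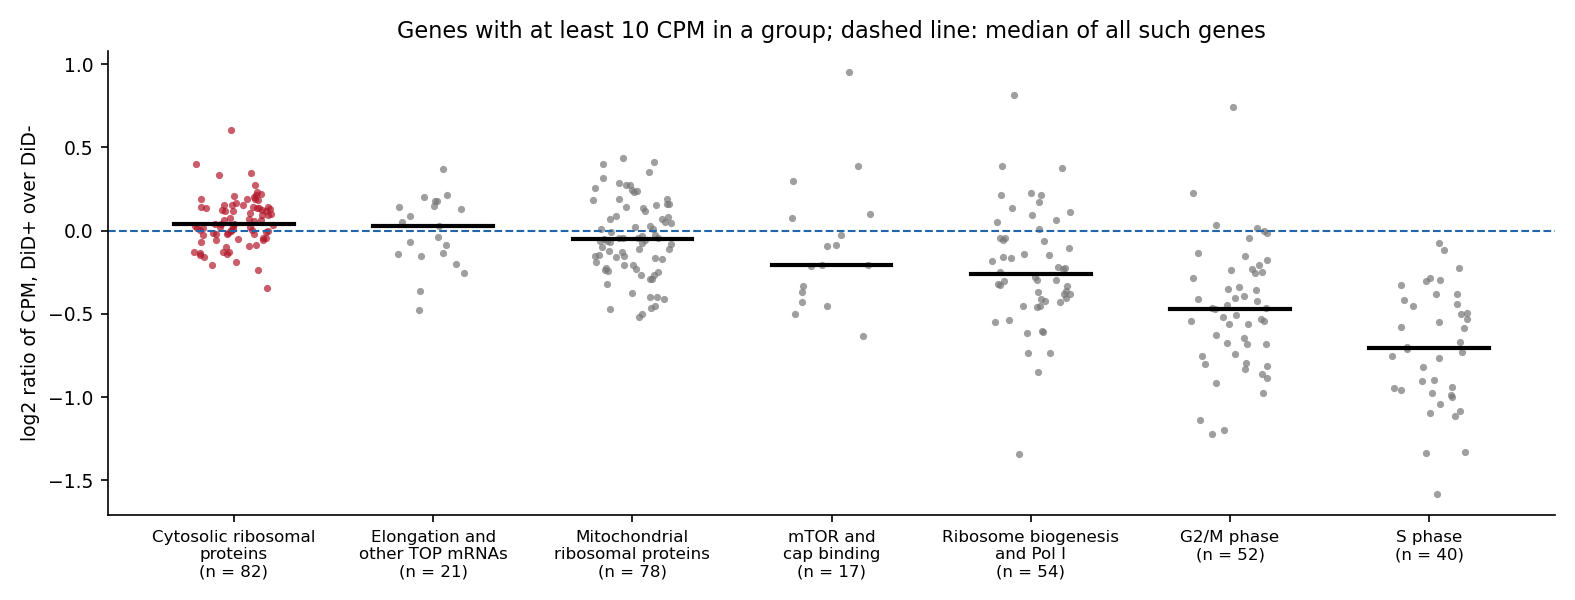
Log2 ratio of CPM, DiD+ over DiD-, of each gene with at least 10 CPM in a group in the ribosomal protein family (red) and in 6 related lists (grey); black bars are list medians and the dashed line is the median of all 8814 genes. Ribosomal proteins (median 0.04) and other TOP mRNAs (0.03) lie at the line, and biogenesis (-0.26), G2/M (-0.47) and S phase genes (-0.70) below it.

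How reads were shared among near-identical copies could affect single members. Ribosomal protein genes have many processed pseudogenes, and RSEM divides a read that matches several of them, which leaves estimated counts that are not whole. Of the 82 members, 68 (82.9%) had such values in at least 50% of cells, against 9.21% of the 8814 genes. Among members with whole values in every cell, Rps19bp1 had a log2 ratio of -0.19, Rps3 of -0.07, Rps20 of -0.01 and Rps9 of 0.04 (-0.03 without cell 35). The 14 members with mostly whole values had a median ratio of -0.0013 (7 of 14 higher), and the 68 others 0.07 (47 of 68 higher). Of all 8814 genes 49.5% were higher. Without cell 35, 30 of the 82 members were higher, and this split was not computed without that cell. Whether shared reads account for the difference was not tested. Counts given to 770 pseudogene entries, named as such or matched by sequence, came to 0.0658% of mouse counts in DiD+ and 0.0659% in DiD-, and adding them left the members' total log2 ratio at 0.03. Levels of members that share reads with such copies are uncertain.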

How the data were processed

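Single PyMT-Bo1 cells, 32 DiD+ and 28 DiD- by their labels, were the samples. Per the labels, the authors aligned trimmed reads with STAR to GRCm38/mm10 supplemented with ERCC and transgene sequences and deposited RSEM's estimated counts, not normalized, for 47825 entries. Instrument and read length differ between the labels and the methods. A second deposited table, a signal that the authors normalized with BASiCS, served only as an alternative. Counts were rounded (96.6% were whole), added up within each group and scaled to mouse counts (CPM), leaving out spike-ins and transgenes. Log2 ratios used a pseudocount of 1 CPM, genes needed 10 CPM in a group, and 0 columns went unused. Named were the 5 highest and 5 lowest members by ratio, the 3 highest and 3 lowest by CPM per kb and by SD, Rpsa, the stalk genes, Rps6, Rpl5, Rpl11, Rps19, Rpl10, Rpl38, the paralogue pairs, members that are not ribosomal proteins and the extremes of each related list. Others (Rpl4, Rps23, Rps9, Rps20, Rps21, Rpl41 and the pseudogenes) were named after their values were seen. Some items that the rule names are not reported here. The members and lists were chosen with earlier results of these data known. Transcript lengths came from GENCODE M21 (APPRIS principal, longest), pseudogenes were matched with blastn 2.17.0 at 85% identity over 50% of a member's length, and promoters came from RefSeq (GRCm38.p6). The alternatives were other scalings (edgeR 4.0.16, DESeq2 1.42.0, BASiCS, ERCC), pseudocounts, minimums, thinning and left-out cells. Python 3.11.15, pandas 2.3.3 and scipy 1.17.1 were used with R 4.3.3, and the ratios were tested on simulated counts. Depth per cell was 2276790 to 7794220 counts, and 3 counts over a group is the limit given for a count of 0.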

Additional observations from a re-analysis of the deposited data

How the results depend on the processing

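Each group is 1 sample, so the limits are those of 60 cells without a known mouse. The sign of the members' CPM difference was not stable. The log2 ratio of the summed share (0.03) was -0.0031 with the mean of per-cell CPM, 0.0056 with TMM, -0.0013 with DESeq2 factors, -0.068 with BASiCS values, 0.037 without mitochondrial genome genes in the total, 0.037 without the wells with host markers, 0.075 in cells 17 to 46 and -0.080 in cells 63 to 92. The members' median (0.04) under these settings, in the same order, was 0.0029, 0.014, 0.0073, -0.055, 0.045, 0.054, 0.10 and -0.070, and it was 0.036 with a pseudocount of 10, 0.035 without a minimum and -0.61 with ERCC scaling. The 54 members higher in DiD+ became 25 with BASiCS values, 24 in cells 63 to 92 and 0 with ERCC scaling. With each cell left out in turn the share ratio ran from -0.038 to 0.065, the median from -0.037 to 0.083, the count from 30 to 61 and the ratio per ERCC count from -0.67 to -0.51. The ratio per ERCC count (-0.62) was -0.49 with the mean over cells, -0.43 with the median over cells, -0.42 without the wells with host markers, -0.82 in cells 17 to 46 and -0.52 in cells 63 to 92. With ERCC scaling Rpl22l1 (-0.042), Rpl36 (-0.24), Rps28 (-0.30) and Rps29 (-0.31) turned below 0, by construction, since that scale moves every gene by -0.65. Beyond the left-out cells, the causes were not tested. Adding pseudogene entries matched by sequence, dividing by coding length, each member's ratio without cell 35 and the counts of short genes without cell 35 were chosen after seeing the data. Thinning every cell to one depth lowered the share of DiD+ cells with a count of the pseudogene Rps3a3 from 50% to 21.9%, and members near 1 count per cell cannot be compared. No paired analysis was possible because the cell numbers do not link DiD+ with DiD- cells.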
